A study of Mus musculus with 19 samples.

Results

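The 10 genes described here code for proteins that switch off signalling through the kinase ERK. They comprise 5 dual-specificity phosphatases (Dusp1, Dusp4, Dusp5, Dusp6 and Dusp14), 2 Sprouty proteins (Spry2 and Spry4) and 3 Spred proteins (Spred1, Spred2 and Spred3). They were selected on their gene names out of 57010 genes in the deposited count table, after their values in LPS against control and in co-treated against LPS were known. All 10 were among the 17757 genes that passed the expression filter. Because those 2 comparisons chose the members, their values are a description with no test.

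ERK is the last kinase of a cascade that runs from growth factor receptors through Ras, Raf and MEK, and in cortical neurons it is also driven by synaptic activity. Dual-specificity phosphatases remove phosphate from the activation loop of MAP kinases, and Sprouty and Spred proteins act further up, at the level of Ras and Raf. Several of these inhibitors are themselves transcribed in response to ERK activity, so that their mRNA forms part of a negative feedback loop.

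Bulk RNA-seq of poly(A) RNA was done on the medial prefrontal cortex of wild-type (WT) mice, in 19 libraries. Control mice (n = 4, numbered 1, 2, 4 and 5 in the labels) were gavaged with saline for 8 days and had saline injected into the peritoneum for 5 days. LPS mice (n = 5) were injected with bacterial lipopolysaccharide at 1 mg/kg for 5 days, a standard way to provoke systemic inflammation, and sedanolide mice (n = 5) were gavaged with the celery phthalide sedanolide at 20 mg/kg. Co-treated mice (n = 5) were given both agents, and gavage began 3 days before the first LPS injection. All groups thus share 8 days of gavage and 5 days of injection. The labels do not state that each library is a different animal, and the p-values therefore measure only the spread between libraries, which may be technical.

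The libraries held 19.08 to 24.32 M counts (M = mega). Values are counts per M (CPM), scaled by each library's normalization factor. Markers of cortical excitatory neurons were detected in every group, all 8 of them, with a summed level of 982 to 2510 CPM, led by the glutamate transporter gene Slc17a7. Transcripts of the olfactory bulb separated the libraries. Cdhr1, a gene of bulb projection neurons, ranged from 57.7 to 445 CPM in 7 libraries, which were controls 1 and 5, LPS 2, 3 and 4, and sedanolide 3 and 4. The remaining 12, with every co-treated library among them, had 2.29 to 9.92 CPM. These are called bulb-rich and bulb-poor, and results that rest on the bulb-rich libraries are given with and without them.

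In the control group, abundance per kb of exon was highest for Spred1, at 39.5 CPM per kb, followed by Dusp14 at 29.6 and Spry2 at 25.8. Dusp6 (21.7), Spred2 (21.3) and Dusp1 (20.9) stood close together. Lower levels were recorded for Dusp5 (9.54), Spred3 (6.51), Spry4 (3.87) and Dusp4 (3.05). Exon lengths came from GENCODE M21, an annotation that may differ from the one used for counting, so close neighbours in this order are not ranked. These means also mix 2 bulb-rich and 2 bulb-poor controls. Dusp5 averaged 36.3 CPM in the bulb-rich and 10.8 CPM in the bulb-poor controls, and Spred3 33.6 and 47.3 CPM. Dusp14 had 62.3 and 53 CPM, and Spry2 48.4 and 59.1 CPM. The places of these genes in the order therefore depend on bulb content.

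**Figure D1:**
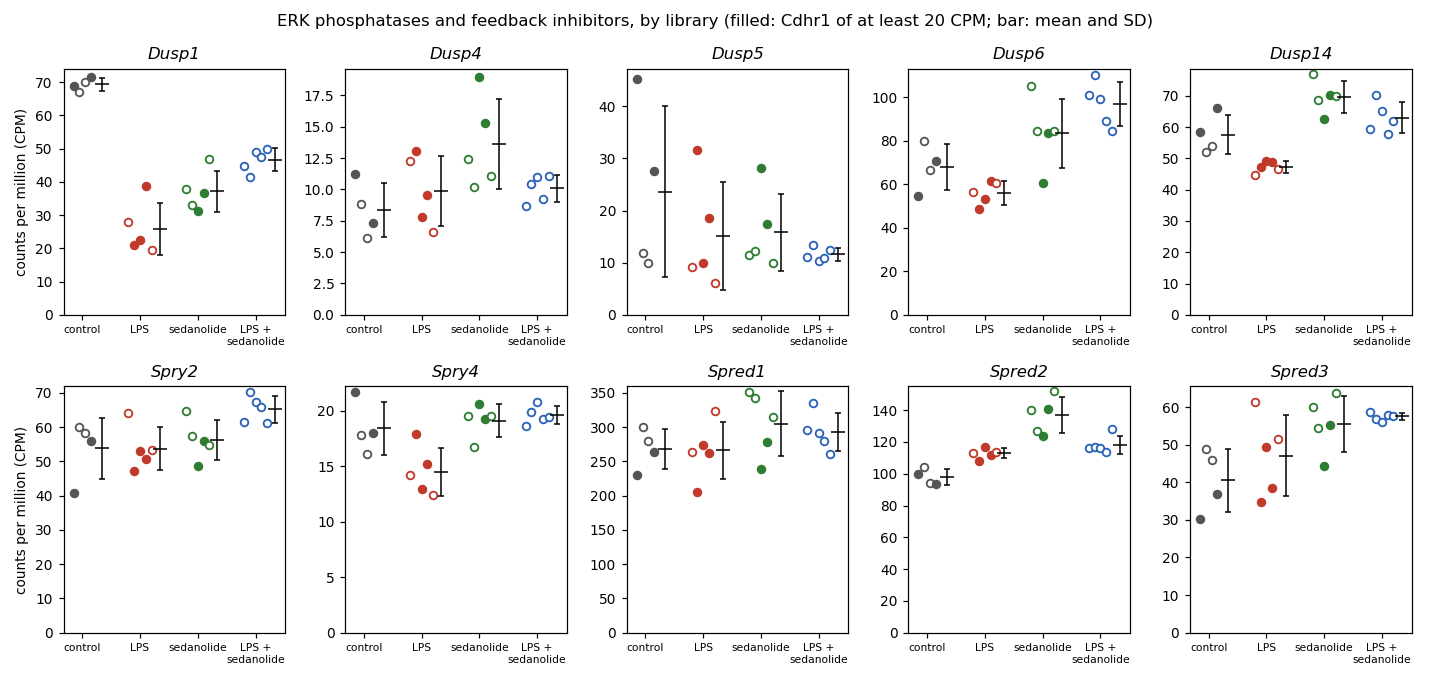
Level of each of the 10 genes in CPM in every library, by group, with the group mean and SD as a bar at the right of each group; filled points are libraries with Cdhr1 of at least 20 CPM. Dusp1 stood at 67.0 to 71.4 CPM in the controls and at 19.5 to 50 CPM in the libraries of the other groups, and the high Dusp5 values belong to filled points.

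Dusp1 codes for a nuclear phosphatase that acts on p38 and JNK as well as ERK and is an immediate-early gene. In the deposited table it lies on chromosome 17 at 26724564 to 26781102, minus strand. It stood at 68.8, 67.0, 70.0 and 71.4 CPM in the controls and at 28.0, 20.9, 22.5, 38.7 and 19.5 CPM in the LPS libraries. Sedanolide libraries had 37.8, 32.9, 31.2, 36.7 and 46.8 CPM, and co-treated libraries 44.7, 41.6, 49.1, 47.6 and 50 CPM. Every library of the 3 treated groups was below every control, and every co-treated library was above every LPS library. Within sedanolide and co-treated libraries the ranges overlapped. The share of all genes that separate without overlap is given below only for LPS against control and co-treated against LPS. Other separations, here and for the other members, are descriptions with no background.

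On the log2 scale Dusp1 was lower in LPS than in control libraries by a difference of -1.42 (SE 0.15), and higher in co-treated than in LPS libraries by 0.85 (SE 0.15). Sedanolide alone, a comparison that did not choose the members although it shares the control libraries with one that did, gave a fall of Dusp1 to 0.535 of the control level (log2 change -0.90, SE 0.15, edgeR adjusted p = 0.00585). Co-treated libraries stayed below the controls, with a log2 difference of -0.57 (SE 0.15). The difference between co-treated and sedanolide libraries was 0.33 (95% interval 0.03 to 0.63, edgeR adjusted p = 0.254). A lower level in tissue can mean less RNA per cell or fewer cells of a type, and bulk counts cannot tell these apart.

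The Dusp1 record spans 56.5 kb and overlaps Ergic1, a gene on the other strand, and the sources used here do not say whether counting used strand. Ergic1 had a mean of 127 CPM ± 6.68 (SD, n = 4) in controls. The other groups had 124 ± 4.52 (LPS), 138 ± 4.37 (sedanolide) and 134 ± 12.9 (co-treated; SD, n = 5 each). Its log2 changes in the 4 comparisons lay between -0.04 and 0.12, none of them called by edgeR. No drop like that of Dusp1 was measured for Ergic1.

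Dusp1 differed little with bulb content: it averaged 41.5 CPM in bulb-rich and 44.6 CPM in bulb-poor libraries. In bulb-poor libraries alone the log2 difference was -1.54 for LPS against control, 0.98 for co-treated against LPS and -0.83 for sedanolide against control. The last of these had an adjusted p of 0.0527 in that smaller set by edgeR, against 0.00585 in all libraries.

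Promoter sequences are shown for 3 members: Dusp1 and Dusp5, which hold motifs of factors known from activity-driven transcription, and Spred2, the member with the smallest adjusted p in sedanolide against control. They are the 250 bases before the annotated start, from RefSeq on GRCm38.p6, at chr17:26508473-26508722 (minus strand), chr19:53528895-53529144 (plus strand) and chr11:19924192-19924441 (plus strand). The deposited table places Dusp1 at 26724564 to 26781102, away from its window here. The gene coordinates of the table are thus not on this build, and the windows cannot be placed against them. Capitals mark the motif TGACG on either strand, which reads CGTCA on the other strand, and CArG boxes.
Dusp1: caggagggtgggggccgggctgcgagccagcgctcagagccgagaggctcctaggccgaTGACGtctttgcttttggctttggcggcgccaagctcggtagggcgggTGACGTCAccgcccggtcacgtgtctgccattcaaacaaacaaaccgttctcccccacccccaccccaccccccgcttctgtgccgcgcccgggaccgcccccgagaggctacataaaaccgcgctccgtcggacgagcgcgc
Dusp5: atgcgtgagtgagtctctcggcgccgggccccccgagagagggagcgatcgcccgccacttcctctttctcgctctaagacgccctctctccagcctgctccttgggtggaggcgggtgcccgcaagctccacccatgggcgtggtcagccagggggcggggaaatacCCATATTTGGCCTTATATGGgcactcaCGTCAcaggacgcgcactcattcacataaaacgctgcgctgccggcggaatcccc
Spred2: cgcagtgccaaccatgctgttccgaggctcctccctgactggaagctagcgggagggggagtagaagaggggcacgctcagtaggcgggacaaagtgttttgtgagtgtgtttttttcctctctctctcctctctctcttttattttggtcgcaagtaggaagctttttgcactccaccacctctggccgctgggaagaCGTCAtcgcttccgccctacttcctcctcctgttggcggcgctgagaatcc

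The searched motifs were TGACGTCA, the cAMP response element bound by CREB-family factors, its part TGACG, and the CArG box, bound by serum response factor, on both strands. Dusp1 held 1 TGACGTCA, from 143 to 136 bases before the start, which by itself counts as 2 matches to TGACG, 1 on each strand, and 1 further TGACG from 191 to 187 bases before it. Dusp5 held 2 adjoining CArG boxes, at 82 to 73 and 72 to 63 bases before the start, and 1 TGACG at 55 to 51. Spred2 held 1 TGACG at 51 to 47. The table matched 8 of the 10 members, and Dusp6, Dusp14, Spry2, Spred1 and Spred3 had no match to these letters in the window. Over 32851 promoters of the same length, 1.55% held TGACGTCA, 17.8% held TGACG and 1.47% held a CArG box. A match describes the letters and is not evidence of binding.

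Over the 19 libraries the genes whose log2 CPM was most like that of Dusp1, among 12861 candidates, were Fos (Pearson r = 0.96), Junb (0.92), Egr2 (0.87), Arl4d (0.87) and Nr4a1 (0.84). Fos, Junb, Egr2 and Nr4a1 are immediate-early genes of active neurons. Fos ranged from 75.0 to 134 CPM among the controls and from 23.2 to 54.0 among LPS libraries, with 41.1 to 50.6 for sedanolide and 53.6 to 71.7 for co-treatment. By their means the groups stood in the same order as for Dusp1. In the 12 bulb-poor libraries r between Dusp1 and Fos was 0.97. These values describe libraries that share their groups and carry no p.

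A list of 12 activity-regulated genes, written with earlier results of these data known, was set beside these results. It holds Fos, Junb, Egr2 and Nr4a1, which were named above for their likeness to Dusp1. Its counts are therefore a description and not independent of Dusp1. The summed level of the list was 1500 to 1940 CPM among the controls and 781 to 1100 among LPS libraries. It was 1160 to 1510 CPM for sedanolide and 1500 to 1620 CPM for co-treatment. In LPS against control 9 of the 12 fell, against 2.44% of all genes, and in co-treated against LPS 6 rose, against 0.287%. With sedanolide alone 5 of the 12 fell, against 2.11% of all genes, and in co-treated against sedanolide 2 rose, against 5.09%. Egr1, the most abundant of them, had a log2 change of -0.70 (SE 0.14, edgeR adjusted p = 0.0016) with LPS and of -0.12 (SE 0.14, edgeR adjusted p = 0.627) with sedanolide alone. Whether the same cells carry Dusp1 and these genes was not tested.

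**Figure D2:**
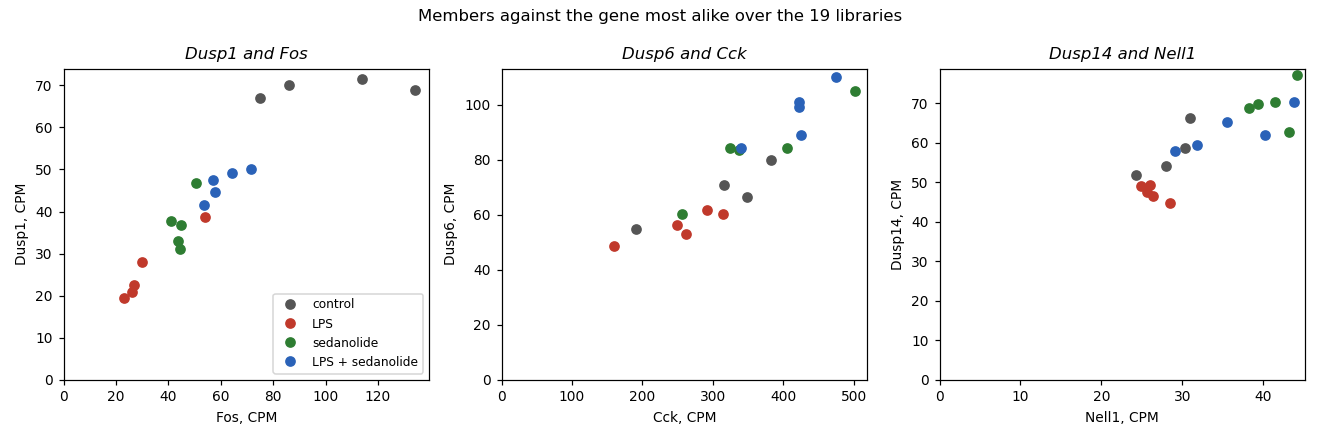
Level in CPM of Dusp1, Dusp6 and Dusp14, each against the gene most alike over the 19 libraries (Fos, Cck and Nell1); each point is a library, coloured by group. The LPS libraries lie toward the low end of each panel, with Dusp1 at 19.5 to 38.7 CPM, and the controls at the high end for Dusp1 only.

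Dusp4 codes for a nuclear phosphatase of ERK and other MAP kinases. It stood at 11.2, 8.81, 6.09 and 7.35 CPM in controls and at 12.3, 13.1, 7.77, 9.53 and 6.59 in LPS libraries. The sedanolide libraries had 12.4, 10.2, 19, 15.3 and 11.1 CPM and the co-treated 8.66, 10.4, 11, 9.24 and 11.1. Only the sedanolide group had values above 13.1 CPM, both of them in its bulb-rich libraries. Against control the log2 difference was 0.70 with sedanolide (SE 0.22, edgeR adjusted p = 0.0605), and it was 0.24 (SE 0.21) with LPS. Adding the bulb index, the mean log2 CPM of 4 bulb markers, to the fit gave 0.81 for sedanolide (edgeR adjusted p = 0.0141), and bulb-poor libraries alone gave 0.56 (edgeR adjusted p = 0.369).

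Dusp5 codes for a nuclear phosphatase specific to ERK, on chromosome 19 at 53517540 to 53530862, plus strand, in the deposited table. Its high values were in libraries with bulb transcripts. Controls had 45.2, 11.8, 9.87 and 27.5 CPM, LPS libraries 9.26, 31.6, 9.91, 18.6 and 6.06, sedanolide libraries 11.4, 12.2, 28.2, 17.4 and 9.96, and co-treated libraries 11.1, 13.3, 10.4, 10.8 and 12.5. The 6 values above 13.3 CPM all belong to bulb-rich libraries, and the remaining bulb-rich library, LPS 3, had 9.91 CPM. The mean was 25.5 CPM ± 11.5 (SD, n = 7) in bulb-rich and 10.7 CPM ± 1.88 (SD, n = 12) in bulb-poor libraries, a ratio of 2.38.

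The within-group SD of log2 CPM was 0.72 for Dusp5, against 0.08 to 0.33 for the other members. Its log2 difference was -0.65 (SE 0.46) for LPS against control and -0.38 (SE 0.45) for co-treated against LPS. In bulb-poor libraries these were -0.52 and 0.61, so the second turned its sign. For sedanolide against control the difference was -0.58 (SE 0.46, edgeR adjusted p = 0.455), and 0.02 in bulb-poor libraries. No direction is given for Dusp5.

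**Figure D3:**
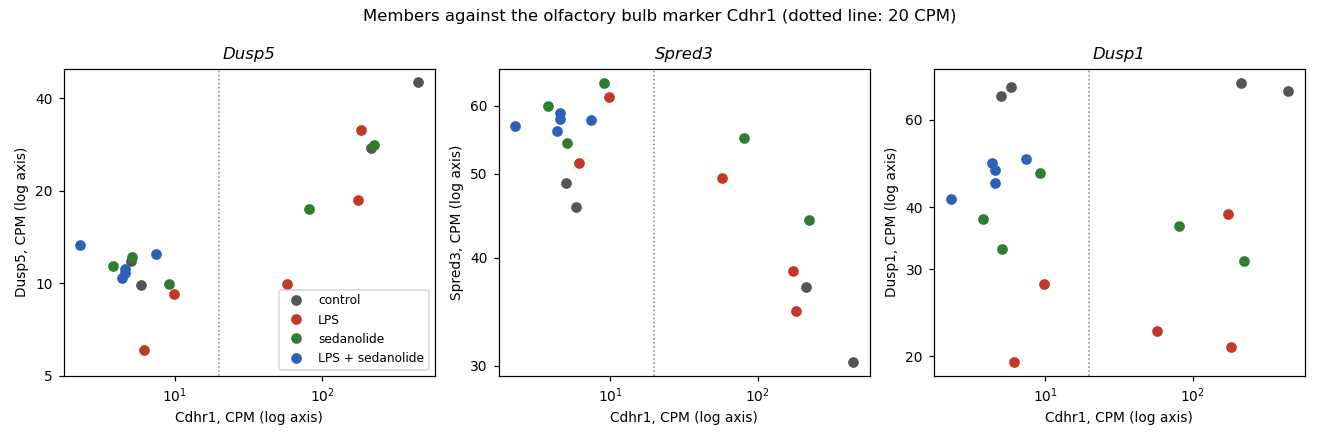
Dusp5, Spred3 and Dusp1 in CPM against the bulb marker Cdhr1 in CPM, both on log axes, 1 point per library, coloured by group, with a dotted line at 20 CPM of Cdhr1. Dusp5 averaged 25.5 CPM right of the line and 10.7 CPM left of it, Spred3 41.3 and 56.1, and Dusp1 41.5 and 44.6.

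Dusp6, the cytoplasmic phosphatase specific to ERK, lies on chromosome 10 at 99099093 to 99103351, plus strand. It stood at 54.6, 79.9, 66.3 and 70.7 CPM in controls and at 56.4, 48.5, 53.0, 61.5 and 60.4 in LPS libraries. Sedanolide libraries had 105, 84.2, 60.3, 83.5 and 84.2 CPM, and co-treated libraries 101, 110, 99.1, 89.1 and 84.3. Every co-treated library was above every LPS and every control library, while LPS and control overlapped. The co-treated level lay above the control level and did not stop at it.

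The log2 difference of Dusp6 was -0.28 (SE 0.13) for LPS against control, 0.79 (SE 0.12) for co-treated against LPS and 0.51 (SE 0.13) for co-treated against control. With sedanolide alone it was 0.30 (SE 0.13, edgeR adjusted p = 0.169), and between co-treated and sedanolide libraries 0.21 (95% interval -0.04 to 0.47, edgeR adjusted p = 0.424). Dusp6 averaged 61.7 CPM in bulb-rich and 85.0 CPM in bulb-poor libraries, but every co-treated library is bulb-poor. Within groups the bulb-rich and bulb-poor means of Dusp6 were 62.7 and 73.1 CPM in controls. They were 54.3 and 58.4 CPM with LPS and 71.9 and 91.1 CPM with sedanolide. In bulb-poor libraries alone the log2 difference of Dusp6 between co-treated and LPS was 0.74, and between co-treated and control 0.40. The genes most like Dusp6 over the libraries were Cck (r = 0.91), which codes for a neuropeptide of cortical neurons, Tspan5 (0.90), Sccpdh (0.90), Ntm (0.89) and Klf10 (0.88). In the bulb-poor libraries these had r of 0.81 to 0.89.

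Dusp14 codes for a small, atypical phosphatase that lacks the kinase-binding domain of the larger members. It lies on chromosome 11 at 83938867 to 83960087, minus strand. The controls had 58.6, 51.9, 54.0 and 66.1 CPM and the LPS libraries 44.6, 47.4, 49.3, 49.0 and 46.5. The sedanolide libraries had 77.1, 68.8, 62.7, 70.3 and 69.8 CPM and the co-treated 59.3, 70.3, 65.3, 57.9 and 62. All 5 LPS libraries were below all controls and below all co-treated libraries.

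The log2 difference of Dusp14 was -0.28 (SE 0.08) for LPS against control and 0.41 (SE 0.07) for co-treated against LPS. Sedanolide alone gave a rise of 0.27 (SE 0.08, edgeR adjusted p = 0.0498), at the edge of the threshold. It was not called when any of 16 of the 19 libraries was left out in turn, every control among them, nor with 7 of 9 other settings. Bulb-poor libraries alone gave 0.41 (edgeR adjusted p = 0.142). Between co-treated and sedanolide libraries the difference was -0.15 (95% interval -0.30 to 0.01, edgeR adjusted p = 0.344). Genes most like Dusp14 over the libraries were Nell1 (r = 0.87), the chaperone gene Hspa8 (0.85), Txnl4a (0.84), Rasgrp1 (0.81), an activator of Ras, and Mlip (0.81).

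Spry2 and Spry4 code for membrane-associated inhibitors of signalling from receptor to Ras and Raf. Spry2 stood at 40.7, 60, 58.3 and 56.1 CPM in controls and at 64.1, 47.3, 53.0, 50.7 and 53.3 in LPS libraries. Sedanolide libraries had 64.7, 57.4, 48.6, 56.0 and 54.7 CPM and co-treated libraries 61.6, 70.4, 67.4, 66.0 and 61.2. The co-treated libraries lay above all controls, and overlapped with the other 2 groups. The log2 difference of Spry2 was 0.00 (SE 0.11) for LPS against control, 0.28 (SE 0.10) for co-treated against LPS and 0.07 (SE 0.11, edgeR adjusted p = 0.741) for sedanolide against control. The level in bulb-poor libraries averaged 61.6 CPM and in bulb-rich 50.3 CPM, and among bulb-poor libraries the co-treated against LPS difference was 0.17. For co-treated against control the log2 difference was 0.28 (SE 0.11) in all libraries. It was 0.14 (SE 0.10) in bulb-poor libraries and 0.12 (SE 0.09) with the bulb index in the fit.

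Spry4 stood at 21.7, 17.8, 16.1 and 18.0 CPM in controls and at 14.2, 17.9, 12.9, 15.2 and 12.4 in LPS libraries. The sedanolide group had 19.5, 16.7, 20.6, 19.2 and 19.5 CPM and the co-treated group 18.6, 19.9, 20.8, 19.2 and 19.4. Only LPS library 2, at 17.9 CPM, reached the control range, and none reached the co-treated range. The log2 difference was -0.34 (SE 0.10) for LPS against control and 0.43 (SE 0.10) for co-treated against LPS. With sedanolide alone it was 0.05 (95% interval -0.16 to 0.27, edgeR adjusted p = 0.78). The means of bulb-rich and bulb-poor libraries were 17.9 and 17.8 CPM, but every co-treated library is bulb-poor. Within groups the bulb-rich mean was higher than the bulb-poor mean, at 19.8 against 16.9 CPM in controls. It was 15.3 against 13.3 CPM with LPS and 19.9 against 18.5 CPM with sedanolide. In bulb-poor libraries alone the log2 difference was -0.36 for LPS against control and 0.57 for co-treated against LPS.

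Spred proteins hold neurofibromin, a protein that inactivates Ras, at the membrane. Spred1 varied among libraries without a separation of groups, from 230 to 300 CPM among the controls, 206 to 323 with LPS, 239 to 351 with sedanolide and 261 to 335 with both. Its log2 differences were -0.01 (SE 0.13) for LPS against control, 0.14 (SE 0.12) for co-treated against LPS and 0.18 (SE 0.13, edgeR adjusted p = 0.375) for sedanolide against control. Bulb-poor libraries averaged 303 CPM and bulb-rich 250 CPM.

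Spred2, on chromosome 11 at 19874375 to 19974026, plus strand, was the member with the narrowest spread within groups (SD of log2 CPM 0.08). Controls had 100, 104, 94.5 and 93.8 CPM, and LPS libraries 113, 108, 117, 112 and 114. Sedanolide libraries had 140, 127, 124, 141 and 152 CPM, and co-treated libraries 116, 117, 116, 114 and 128. Every library of the 3 treated groups was above every control, and the sedanolide libraries were the highest, with only the co-treated library of 128 CPM reaching their range.

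With sedanolide alone Spred2 rose 1.4-fold (log2 change 0.48, SE 0.07, edgeR adjusted p = 0.00249), and the call held when each library was left out in turn. It had an adjusted p of 0.0584 by edgeR when only the 2 groups compared were fitted, and of 0.108 in bulb-poor libraries, where the log2 change was 0.46. The log2 difference was 0.20 (SE 0.07) for LPS against control and 0.07 (SE 0.06) for co-treated against LPS. Between co-treated and sedanolide libraries it was -0.21 (SE 0.06, edgeR adjusted p = 0.0515). That value was 0.0477 with another library scaling and 0.00865 by DESeq2, so it lies on either side of the threshold. By edgeR it was 0.0223 without co-treated library 5, the one of 128 CPM. It was 0.0379 without sedanolide 2 and 0.027 without sedanolide 3, and the other 16 fits with a library left out gave no call.

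Spred3 stood at 30.3, 48.8, 45.8 and 37.0 CPM in controls and at 61.4, 34.7, 49.4, 38.6 and 51.5 in LPS libraries. Sedanolide libraries had 60, 54.3, 44.2, 55.1 and 63.8 CPM and co-treated libraries 58.8, 56.8, 56.1, 57.9 and 57.7. The co-treated libraries lay within 3 CPM of each other, and all of them were above all controls. No share of all genes is given for that separation. The log2 difference from control was 0.46 with sedanolide (SE 0.15, edgeR adjusted p = 0.0795), 0.22 (SE 0.15) with LPS and 0.51 (SE 0.15) with both. Spred3 was lower in bulb-rich than in bulb-poor libraries, at 41.3 against 56.1 CPM, and the lowest controls, 1 and 5, are the bulb-rich ones. In bulb-poor libraries alone the difference from control was 0.30 with sedanolide (edgeR adjusted p = 0.282) and 0.27 (SE 0.09) with both. With the bulb index in the fit these were 0.34 (edgeR adjusted p = 0.0259) and 0.23 (SE 0.10). The value for LPS against control was 0.10 without control 1 and 0.11 without LPS 1. Its difference between co-treated and LPS libraries was 0.29 (SE 0.14), and 0.04 in bulb-poor libraries alone.

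**Figure D4:**
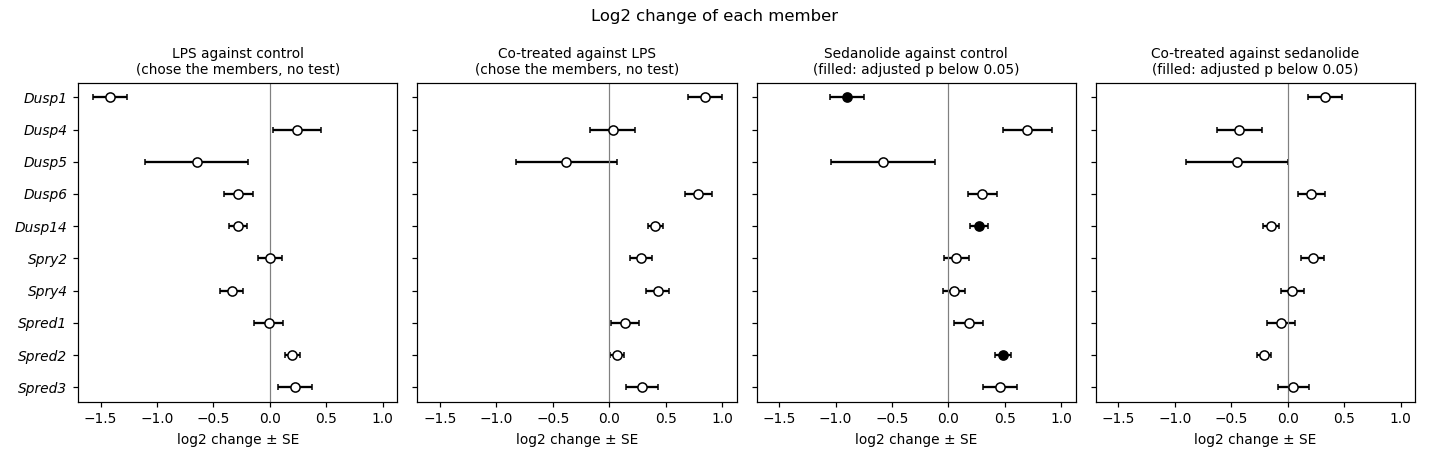
Log2 change of each of the 10 genes with its SE as a bar, in 4 comparisons; the first 2 panels chose the members and carry no test, and in the other 2 a filled point had an edgeR adjusted p below 0.05. In the panel of sedanolide against control Dusp1 lies at -0.90, and Dusp14 and Spred2 at 0.27 and 0.48, as the filled points.

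Across the 10 members the median log2 difference was -0.15 for LPS against control, with 7 members below 0, against a median of 0.00 over all genes tested. Dusp1 and Dusp14 were lower and Spred2 higher without overlap of the libraries. Over all genes tested 2.8% were lower and 7.93% higher by that criterion, and edgeR called 2.44% lower and 8.47% higher. Since this comparison chose the members, nothing is read from these counts.

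For co-treated against LPS the median of the members was 0.28, with 9 of 10 above 0, against -0.01 over all genes. Dusp1, Dusp6, Dusp14 and Spry4 were higher without overlap, and no member was lower in that way. Of all genes tested 3.33% were higher and 4.6% lower without overlap, and edgeR called 0.287% higher and 1.68% lower. The same restriction holds as for the first comparison. Against control the co-treated libraries were higher without overlap for 4 members and lower for 1. No share of all genes is given for that comparison, and nothing is read from these counts.

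For sedanolide against control, 1 member (Dusp1) fell and 2 (Dusp14 and Spred2) rose, while edgeR called 2.11% of all genes lower and 3.2% higher. Its control libraries are also those of LPS against control, which chose the members, so these counts are not independent of that choice. The members' median was 0.23 and that of all genes -0.01. With upper-quartile scaling the share of higher genes among all those called in this comparison moved from 60.2% to 37.4%, and Dusp14 was not called (adjusted p = 0.0882). In bulb-poor libraries alone edgeR called 0 members, with 6 at an unadjusted p below 0.05. DESeq2 over all libraries called 5, adding Dusp4 and Spred3. No share of all genes is given for bulb-poor libraries, DESeq2 or an unadjusted p. The 0, 6 and 5 members thus have no background, and nothing is read from them.

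For co-treated against sedanolide, the LPS change in sedanolide-gavaged mice, edgeR called 0 of the 10 members, with 4 at an unadjusted p below 0.05, and DESeq2 called 1 (Spred2). Of all genes tested 5.09% were called higher and 0.484% lower. The members' median was -0.01, with 5 on each side of 0. Its co-treated libraries are also those of co-treated against LPS, which chose the members, so these values are not independent of that choice.

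The sedanolide difference with LPS less that without it was 1.75 for Dusp1 (SE 0.21) on the log2 scale, since Dusp1 was lower with sedanolide alone and higher when sedanolide was added to LPS. The same quantity was 0.49 (SE 0.18) for Dusp6, 0.38 (SE 0.14) for Spry4, -0.42 (SE 0.09) for Spred2 and -0.67 (SE 0.29) for Dusp4. Its median over the members was 0.17, and -0.02 over all genes. It contains a comparison that chose the members and was not tested.

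Members differed in how they varied together over the libraries. Dusp6 and Spry2 had r = 0.76, Dusp6 and Dusp14 0.74, and Dusp14 and Spry4 0.71, with 0.56, 0.84 and 0.78 in bulb-poor libraries. Spry2 and Spred3 had r = 0.79 over all libraries and 0.28 in the bulb-poor. Dusp5 and Spred3, which lie at opposite ends of the relation to Cdhr1, had r = -0.80 and 0.17. Over all libraries Dusp1 had r of 0.55 at most with any other member, which was Spry4. In the bulb-poor libraries it had r = 0.63 with Spry4 and 0.6 with Dusp5, against 0.21 with Dusp5 over all libraries. The libraries share groups and bulb content, and these values carry no p.

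The other genes of the pathway came from lists of 151, of which 150 were in the table and 147 were tested. In LPS against control 23 of the 147 (15.6%) rose and 3 (2.04%) fell, against 8.47% and 2.44% of all genes, with a median of 0.05. Receptor tyrosine kinases had 6 of 21 higher and none lower, among them Csf1r, the receptor that sustains microglia, from 121 CPM ± 27.7 (SD, n = 4) to 320 ± 34.2 (SD, n = 5), and Flt4, a receptor of vascular and lymphatic growth factors, from 3.48 ± 0.866 to 9.74 ± 2.38. Of the ERK-regulated kinases and transcription factors 5 of 20 rose, led by the ribosomal S6 kinase gene Rps6ka1 (log2 change 1.30, SE 0.12, edgeR adjusted p = 4.44e-07) and Elk3 (0.71, SE 0.12, edgeR adjusted p = 0.000462).

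The inhibitors outside the 10 members were mixed. Among 18 other feedback inhibitors 4 rose with LPS, led by the adaptor Dok1 (log2 change 1.47, SE 0.19) and the cytokine-signalling inhibitor Socs3 (1.11, SE 0.19). Errfi1, an inhibitor of the EGF receptor (-0.34, SE 0.08), and Rasa2, which inactivates Ras (-0.49, SE 0.15), fell. Of 15 other MAP kinase phosphatases 1 rose, Dusp2, from 0.62 CPM ± 0.148 (SD, n = 4) to 1.15 ± 0.297 (SD, n = 5). Ligands had 1 of 21 higher (Pdgfb, 0.67), adaptors and Ras proteins 3 of 24, led by Rras (0.85) and Shc1 (0.70), and p38 and JNK kinases 1 of 13 (Mapk12, 0.65). The core of Raf, MEK, ERK and scaffolds had Iqgap1 (0.74) and Arrb2 (0.36) higher and Araf (-0.28) lower, of 15.

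Cell type markers moved with this comparison. Summed microglial markers ranged from 361 to 573 CPM in controls and from 874 to 1130 in LPS libraries, with 6 of 7 genes called higher. All 8 endothelial markers rose, from 243 to 375 CPM in sum to 461 to 626, and all 6 neutrophil markers tested rose, from 7.39 to 10.8 CPM to 63.4 to 66.5. Csf1r is itself in the microglial list and Kdr and Flt1 in the endothelial one. The part of these cells in the pathway counts was not tested.

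In co-treated against LPS 3 of the 147 pathway genes fell and none rose: the insulin receptor gene Insr (log2 change -0.23, SE 0.05, edgeR adjusted p = 0.0325), the adaptor Shc1 (-0.58, SE 0.13, edgeR adjusted p = 0.0289) and the scaffold Iqgap1 (-0.69, SE 0.13, edgeR adjusted p = 0.00753). Shc1 and Iqgap1 were also called higher with LPS. The 3 are 2.04% of the list, near the 1.68% of all genes. In bulb-poor libraries edgeR called none of them, with 21 pathway genes at an unadjusted p below 0.05, and DESeq2 over all libraries called 10, of which 3 were higher. No share of all genes is given beside the 21 and the 10, and nothing is read from them. With a library left out the count was 1 to 6, and it was 1 without LPS 2 or 4 or without co-treated 1, 3 or 5. Neutrophil markers fell in this comparison as well, 5 of the 6 tested, from a summed 63.4 to 66.5 CPM in LPS to 31.9 to 39.2 in co-treated libraries. Of the 8 endothelial markers 2 fell, with sums of 461 to 626 and 369 to 452 CPM. The 7 microglial markers had sums of 874 to 1130 and 866 to 1140 CPM and a median log2 difference of -0.10. The part of these cells in the pathway counts was not tested.

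With sedanolide alone 10 of the 147 (6.8%) rose and none fell, against 3.2% and 2.11% of all genes. Besides Spred2 and Dusp14 among the members, the phosphatases Dusp3 (from 129 CPM ± 12.5, n = 4, to 179 ± 9.37, n = 5, SD; edgeR adjusted p = 0.00585) and Dusp7 (74.8 ± 6.67 to 91.9 ± 4.78; edgeR adjusted p = 0.0293) rose. Also higher were the inhibitors Dab2ip (log2 change 0.67) and Cbl (0.33), together with Pdgfb (0.45), Flt4 (0.82), Mras (0.55), the scaffold Ksr2 (0.48) and Arrb1 (0.29). These calls depended on the setting. In bulb-poor libraries and with only the 2 groups fitted edgeR called 0, with 15 and 31 at an unadjusted p below 0.05. With a library left out it called 1 to 21 (1 without control 5, sedanolide 4 or sedanolide 5, and 21 without control 2). No share of all genes is given for these settings, so the counts show only how far the calls moved. Summed markers of cortical excitatory neurons were 982 to 2130 CPM in controls and 1790 to 2470 with sedanolide. Their median log2 difference was 0.39. Olfactory bulb markers summed to 9.04 to 1080 and 4.71 to 428 CPM, with a median of -1.86. Microglial and endothelial markers had medians of 0.25 and 0.10. No gene of these lists was called by edgeR, and of 6 astrocyte markers 1 fell. The part of these cells in the pathway counts was not tested.

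In co-treated against sedanolide 6 of 147 (4.08%) rose, against 5.09% of all genes: Csf1r, Kdr, Dok1, Rras, Rps6ka1 and Ets1. The only one that fell was the ETS factor gene Etv4, which makes 0.68% of the 147, near the 0.484% of all genes. It went from 11.5 CPM ± 1.81 in sedanolide to 7.47 ± 0.898 in co-treated libraries (SD, n = 5 each). Its log2 change was -0.62 (SE 0.17, edgeR adjusted p = 0.0388). Cell type markers rose in this comparison too. Summed microglial markers were 458 to 589 CPM in sedanolide and 866 to 1140 in co-treated libraries, with 6 of 7 genes called, and summed neutrophil markers 6.11 to 12.7 and 31.9 to 39.2 CPM, with 5 of 6 called. Endothelial markers summed to 276 to 343 and 369 to 452 CPM, with 4 of 8 called higher, and those of pericytes and smooth muscle to 206 to 286 and 277 to 414 CPM, with 3 of the 5 tested called higher. Csf1r is in the microglial and Kdr in the endothelial list. Of the 7 neutrophil genes 1 had no count in the sedanolide libraries. Their part in the pathway counts was not tested.

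**Figure D5:**
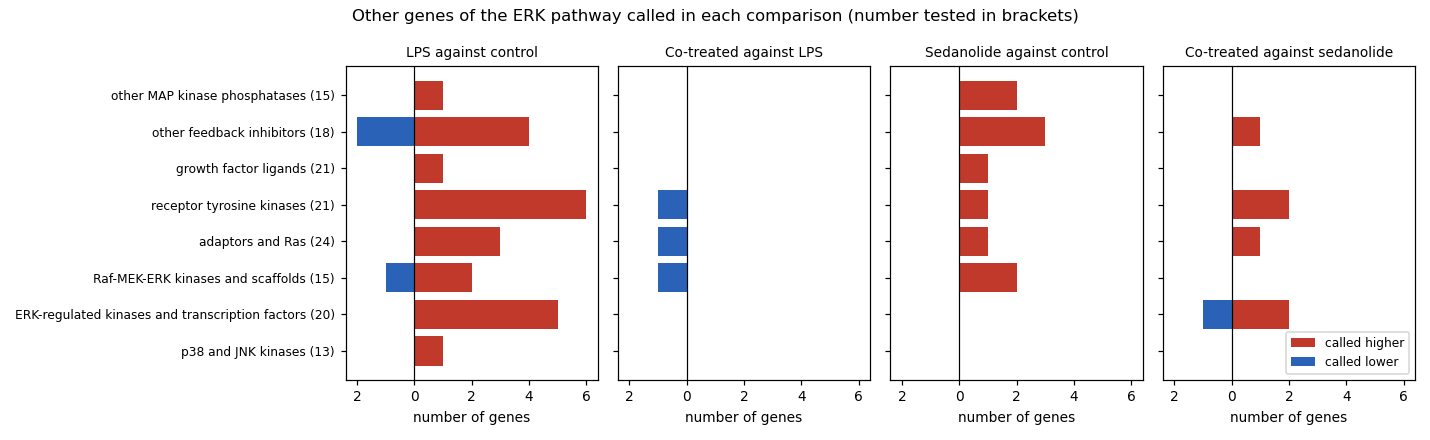
Number of pathway genes outside the 10 members called higher (right of 0) or lower (left of 0) by edgeR at an adjusted p below 0.05, by list, in 4 comparisons, with the number tested in brackets. Receptor tyrosine kinases had 6 genes higher with LPS, and in co-treated against LPS 3 lists had 1 gene lower each.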

How the data were processed

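Per the labels' protocols, poly(A) RNA from medial prefrontal cortex was made into stranded Illumina libraries. The deposited table holds whole-number counts per gene in 19 libraries, not normalized by the authors. The submitters' processing notes name fastp, HISAT2, StringTie, RSEM and DESeq2, whereas the count file is named for featureCounts. Versions, the genome build and the use of strand are not given in the sources used here, so coordinates are as the table gives them. Control replicate 3 was not analysed here.

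The members and all gene lists were chosen with earlier results of these data known. Testing used edgeR 4.0.16 under R 4.3.3, with the default expression filter by group (17757 genes), TMM factors and the robust quasi-likelihood test, with 1 mean per group over all 19 libraries. Two-sided p-values were corrected by Benjamini-Hochberg across the 17757 genes, and calls were made at an adjusted p below 0.05. The SE was derived from the F statistic (absolute log2 change divided by its square root). A library was bulb-rich at Cdhr1 of 20 CPM or more. Likeness was Pearson's r of log2 CPM with a prior count of 2. The procedure was tested on simulated data with 200 changed genes. Replicate pairs differed by more than counting noise (chi-square per gene 2.47 to 115 over 36 pairs).

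Named genes were every member, up to 2 called genes in each direction for each pathway list and comparison, the 5 most alike for Dusp1, Dusp6 and Dusp14, and the most abundant marker of a list set beside a result. Cbl with sedanolide, Kdr and Flt1 as shared markers, and Ergic1 as an overlapping gene were named beyond that rule after their values were seen. One gene called in a pathway list is counted but not reported here. Spry3 was not analysed here, and for Nrg1, which has 2 records, the one with more counts was used. Alternatives were RLE and upper-quartile factors, no filter, a filter of 1 CPM in 4 libraries, DESeq2 1.42.0, only the groups compared, the replicate block, the bulb index as a covariate, bulb-poor libraries only, and leaving out each library in turn.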

Additional observations from a re-analysis of the deposited data

Results flagged for a closer look

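Spred2 in co-treated library 5, at 128 CPM, lay far from the other 4 co-treated libraries, which had 114 to 117 CPM. It was 1 of 40 combinations of gene and group examined for such a gap, a rule that chance meets in about 1 of 20. The library as a whole stood apart from those 4. Its chi-square per gene against them was 35.2 to 59.5, and among them it was 2.47 to 12.4. Mitochondrial genes made 5.5% of its counts, the lowest of the 19 libraries, against 9.98% to 11.8% in those 4. Without this library the log2 difference of Spred2 between co-treated and sedanolide libraries was -0.246 (edgeR adjusted p = 0.0223). With it the difference was -0.215 (edgeR adjusted p = 0.0515).

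Dusp1 moved in opposite directions under sedanolide: every sedanolide library was below every control, and every co-treated library was above every LPS library. The difference of the 2 log2 changes was 1.75. It was not tested, because one of its comparisons chose the member.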

How the results depend on the processing

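The number of members called for sedanolide against control was 3, and became 5 by DESeq2, 5 with the bulb index and 1 with only the groups compared. It was 2 with RLE factors, upper-quartile factors, no filter, the filter of 1 CPM and the replicate block. In bulb-poor libraries it was 0 (6 at an unadjusted p below 0.05, edgeR), and with a library left out 2 to 3. For co-treated against sedanolide it was 0, and became 1 with RLE factors, 1 with the filter of 1 CPM, 1 by DESeq2, 1 with the bulb index and 0 to 1 with a library left out, each time through Spred2. Members without overlap numbered 3 for LPS against control (7 in bulb-poor libraries, 2 higher and 5 lower, where each group has 2 and 21.1% of all genes were higher and 21.6% lower in that way, and 3 to 4 with a library left out) and 4 for co-treated against LPS (4 to 6). These counts have no separate value for the block, the bulb index, the filters or the groups compared. For members and pathway genes alike, the share of all genes called is given only for the edgeR fit to all libraries with TMM factors. Counts under the other settings show only how far the calls moved.

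Pathway genes called numbered 26 for LPS against control, 17 with only the groups compared, 10 in bulb-poor libraries and 18 to 36 with a library left out. For co-treated against LPS they were 3, and 10 by DESeq2, 10 with only the groups compared, 0 in bulb-poor libraries, and 1 to 6 with a library left out. For sedanolide against control they were 10, and 5 with upper-quartile factors, 4 without a filter, 21 by DESeq2, 0 with only the groups compared, 0 in bulb-poor libraries, and 1 (without control replicate 5) to 21 (without control replicate 2). For co-treated against sedanolide they were 7, and 12 with only the groups compared, 11 with the bulb index, and 6 to 10 with a library left out. The cause was not tested, beyond the smaller number of libraries in some fits.

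Replicate numbers did not pair the libraries: same-numbered pairs had a mean correlation of deviations of -0.11 (27 pairs, -0.51 to 0.29), and 1 of 19 libraries was closest to its own number. With the replicate block the pathway counts became 1 for co-treated against LPS and 1 for sedanolide against control, and Dusp14 was not called for sedanolide against control (edgeR adjusted p = 0.13).

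The median over members moved between 0.146 and 0.237 with a library left out for co-treated against control (all libraries 0.196) and between 0.076 and 0.194 for the difference of the sedanolide changes (0.168), which has no value with only the groups compared. Among the tested comparisons signs turned for Dusp5 (0.014 with the bulb index, 0.018 in bulb-poor libraries) and Spry2 (-0.007 and -0.032) in sedanolide against control, and for Dusp5 (0.179 and 0.078) and Spred3 (-0.104 and -0.025) in co-treated against sedanolide. With a library left out they turned for Spry2 (-0.046 to 0.123) and Spry4 (-0.003 to 0.146) in the first, and Spry4 (-0.009 to 0.065) and Spred3 (-0.02 to 0.106) in the second; none of these was called in any of those fits. Counting error bears most on the least abundant genes named, such as Dusp2 and Dok1.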
